A study of Mus musculus with 3 samples.

Results

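The transcriptome described here is that of oocytes from unexposed ICR females (an outbred mouse stock) aged 8 weeks. It was read from the control library, the single library whose exposure label is none, by summing FPKM (fragments per kilobase of transcript length, set against the total of the library) over the rows of each gene name and leaving out rows without a name. This gave 22226 gene names of 23464 over the 3 libraries of the series, with a summed level of 319152 FPKM in place of 377415 FPKM when unnamed rows are kept. The other libraries came from oocytes of ICR females of the same age labelled with a low or a high exposure to PCB118, a dioxin-like pentachlorobiphenyl, and serve here only as a check of rank. According to the series title, PCB118 was given during pregnancy and the oocytes are those of the offspring, whose maturation is the question of the study. The amounts of PCB118, the stage of the oocytes and the numbers of oocytes and animals behind each library are not stated in the labels. With 1 library per group there is no replicate, so no error between animals, no test and no p-value is given, and each value describes a library and not a condition. The control depth was estimated at about 34700000 reads, so that for a transcript of 1 kb a single read equals 0.0288 FPKM and 3 reads equal 0.0865 FPKM; the exposed libraries were estimated at 27900000 and 31500000 reads.

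A mouse oocyte builds up messenger RNA and protein while it grows and then stops transcribing, so that meiosis and the first steps of embryonic development run on what was stored. Stored transcripts are kept with short poly(A) tails, and many are recruited to ribosomes through a cytoplasmic polyadenylation element near their 3′ end. Oocytes also make a coat of zona glycoproteins, secrete growth factors to the surrounding granulosa cells, draw on pyruvate and lactate for energy, and hold a protein complex beneath the membrane that the early embryo needs.

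The promoters of 8 abundant transcripts, chosen after their values were seen, are shown before the levels because they differ in how many CG pairs they hold. Each run is the 120 bases before the annotated start in RefSeq (GRCm38.p6), 5′ to 3′ on the strand of the gene, with CG pairs in capitals and, where it lay in the last 50 bases, the motif TATAA in capitals. The first 4 belong to oocyte families, Zp3 to the egg coat, and the last 3 to genes used by many kinds of cell.
Omt2a: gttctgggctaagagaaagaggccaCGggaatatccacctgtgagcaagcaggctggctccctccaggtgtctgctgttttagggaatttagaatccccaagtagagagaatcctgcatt
Omt2b: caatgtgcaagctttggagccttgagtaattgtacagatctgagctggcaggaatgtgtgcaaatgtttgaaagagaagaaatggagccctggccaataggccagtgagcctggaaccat
Fbxw24: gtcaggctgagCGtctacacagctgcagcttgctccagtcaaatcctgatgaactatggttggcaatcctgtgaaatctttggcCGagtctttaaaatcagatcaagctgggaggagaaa
Obox1: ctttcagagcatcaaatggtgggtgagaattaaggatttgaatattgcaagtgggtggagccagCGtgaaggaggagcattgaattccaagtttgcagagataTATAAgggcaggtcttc
Zp3: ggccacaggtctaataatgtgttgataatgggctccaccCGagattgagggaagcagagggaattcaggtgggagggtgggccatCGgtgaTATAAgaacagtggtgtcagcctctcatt
Cks2: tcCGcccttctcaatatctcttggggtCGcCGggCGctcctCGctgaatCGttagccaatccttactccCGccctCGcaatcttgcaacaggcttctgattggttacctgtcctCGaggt
Pttg1: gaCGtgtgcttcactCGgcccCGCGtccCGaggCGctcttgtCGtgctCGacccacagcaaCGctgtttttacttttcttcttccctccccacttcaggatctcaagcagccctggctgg
Ldhb: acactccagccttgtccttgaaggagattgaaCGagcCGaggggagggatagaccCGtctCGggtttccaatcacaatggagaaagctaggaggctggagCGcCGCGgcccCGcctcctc
They lie at chr9:78314049-78314168 on the minus strand for Omt2a, chr9:78327910-78328029 on the plus strand for Omt2b, chr9:109626060-109626179 on the minus strand for Fbxw24, chr7:15547137-15547256 on the plus strand for Obox1, chr5:135979985-135980104 on the plus strand for Zp3, chr13:51645112-51645231 on the plus strand for Cks2, chr11:43425982-43426101 on the minus strand for Pttg1 and chr6:142507958-142508077 on the minus strand for Ldhb. The runs of Cks2 and Pttg1 hold 9 CG pairs each and that of Ldhb 8, against 0 to 2 in the other 5.

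Gene names at 1 FPKM or more numbered 11303, which is 50.9% of those listed, and 1559 names were listed at 0. The median level was 1.06 FPKM over all names and 5.29 FPKM over those at 1 FPKM or more. FPKM was concentrated in few names. The most abundant name alone held 1.48% of the summed FPKM, the first 10 held 9.71%, the first 100 held 32.2% and the first 1000 held 70.3%. A share of 25% of all FPKM was reached with 55 names, 50% with 314, 75% with 1323 and 90% with 3665. There were 31 names at 1000 FPKM or more, and 571 at 100 FPKM or more, which together held 60.4%. By annotated type, protein-coding names held 87.6% of FPKM and 91 of the first 100 places. Long intergenic non-coding RNAs held 3.37% with 519 names at 1 FPKM or more, and processed pseudogenes held 2.36%. The sole Mt-rRNA name listed, mt-Rnr2, held 0.254%.

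**Figure D1:**
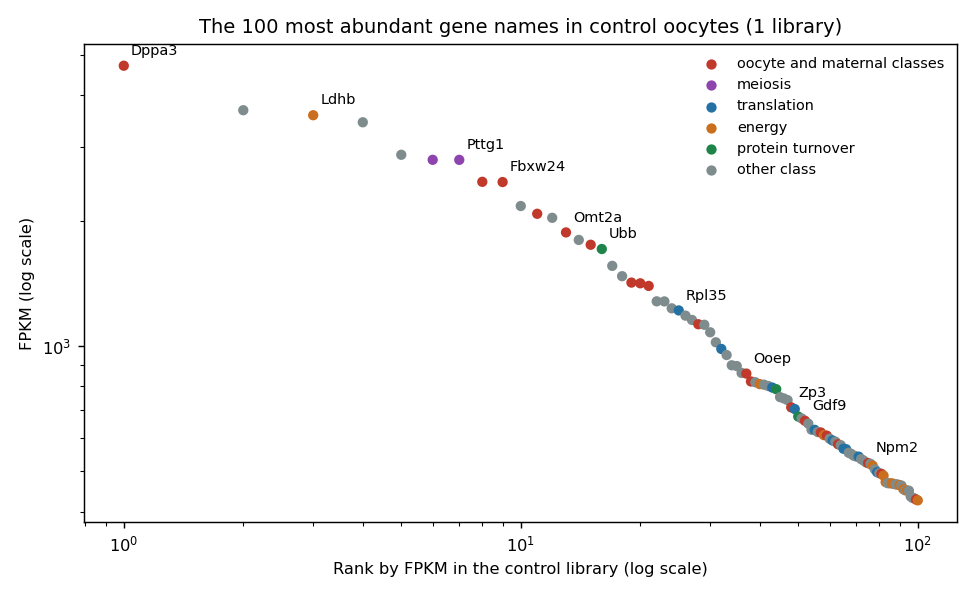
Level in FPKM (log scale) of the 100 most abundant gene names of the control library against their rank (log scale), 1 point per name, coloured by group of classes. Levels run from 4707 FPKM for Dppa3 at rank 1 to 426 FPKM at rank 100, and oocyte and maternal names are spread over the whole range.

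The first ranks mixed maternal factors, cell cycle regulators and a single metabolic enzyme. Dppa3, which protects maternal DNA methylation in the zygote, led with 4707 FPKM in control and stood at 4174 and 5342 FPKM in the low and high dose libraries, at ranks 2 and 1 there. Ldhb, the lactate dehydrogenase subunit that favours the use of lactate, had 3580 FPKM in control at rank 3, against 2298 and 2434 FPKM in the exposed libraries. Dppa5a, an RNA-binding protein known from pluripotent cells, had 3443 FPKM at rank 4, against 4869.7 and 2198 FPKM. In each of the 3 libraries these transcripts stayed among the first 7.

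Cks2, a small partner of cyclin-dependent kinases, was at 2798 FPKM in control and at 2728 and 3173 FPKM in the exposed libraries. Pttg1, or securin, which holds separase inactive until anaphase, was at 2797, 2827 and 3134 FPKM. Both were within the first 7 names of every library. H1foo, the linker histone of oocytes, stood at 2477 FPKM in control, against 1104.9 and 1369.9 FPKM in the low and high dose libraries. Bcl2l10, a Bcl2 family protein abundant in oocytes, was at 2030.0 FPKM, against 1444 and 1479 FPKM. Spin1, a histone reader that mouse oocytes need to resume meiosis, was at 1124 FPKM, Gtsf1, a small zinc finger protein of germ cells, at 1279 FPKM, and Skp1a, the adaptor that joins F-box proteins to the SCF ubiquitin ligase, at 1470.0 FPKM.

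Genes with provisional names took 5 of the first 20 places and 13 of the first 100. E330017A01Rik, listed in RefSeq as Ftdc2, was at rank 2 with 3681 FPKM, and Gm813, listed as Ftdc1, at rank 5 with 2877 FPKM. In the low and high dose libraries E330017A01Rik was at 1239.6 and 1428.6 FPKM, at ranks 16 and 13, and Gm813 at 2076 and 2421 FPKM. They lie side by side at chr16:58613675-58638739 and together held 2.05% of FPKM. Their coding sequences were 51.6% identical. Gm43269, an intergenic non-coding RNA, was at rank 10 with 2167 FPKM, and Gm15698, listed as Elobl, was at 1796 FPKM. Gm1821, a processed pseudogene of Ubb, was at 1556 FPKM beside Ubb itself, a polyubiquitin gene, at 1708 FPKM. Reads of these near copies could be split or shared in counting, so the level of either is uncertain.

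Oocyte and maternal genes of 12 classes, 163 names in all, held 11.1% of FPKM, with 126 names at 1 FPKM or more. A share of 4.5% of all names was among the 1000 most abundant, and 62 of the 163 were, with 20 in the first 100. The median of the group was 16.4 FPKM, against 1.06 FPKM for all names. The group was itself uneven, since its 5 most abundant members held 38.3% of its FPKM and its 10 most abundant 58.3%. These classes were drawn up as lists of known oocyte genes, with earlier results of these libraries known, so their counts are a description. Names of no class held 48.5% of FPKM and provisional names 14.8%. Some genes of oocytes or germ cells, such as Bcl2l10 and Gtsf1, are in no class. The 11.1% is thus the share of the lists and not of all oocyte genes.

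**Figure D2:**
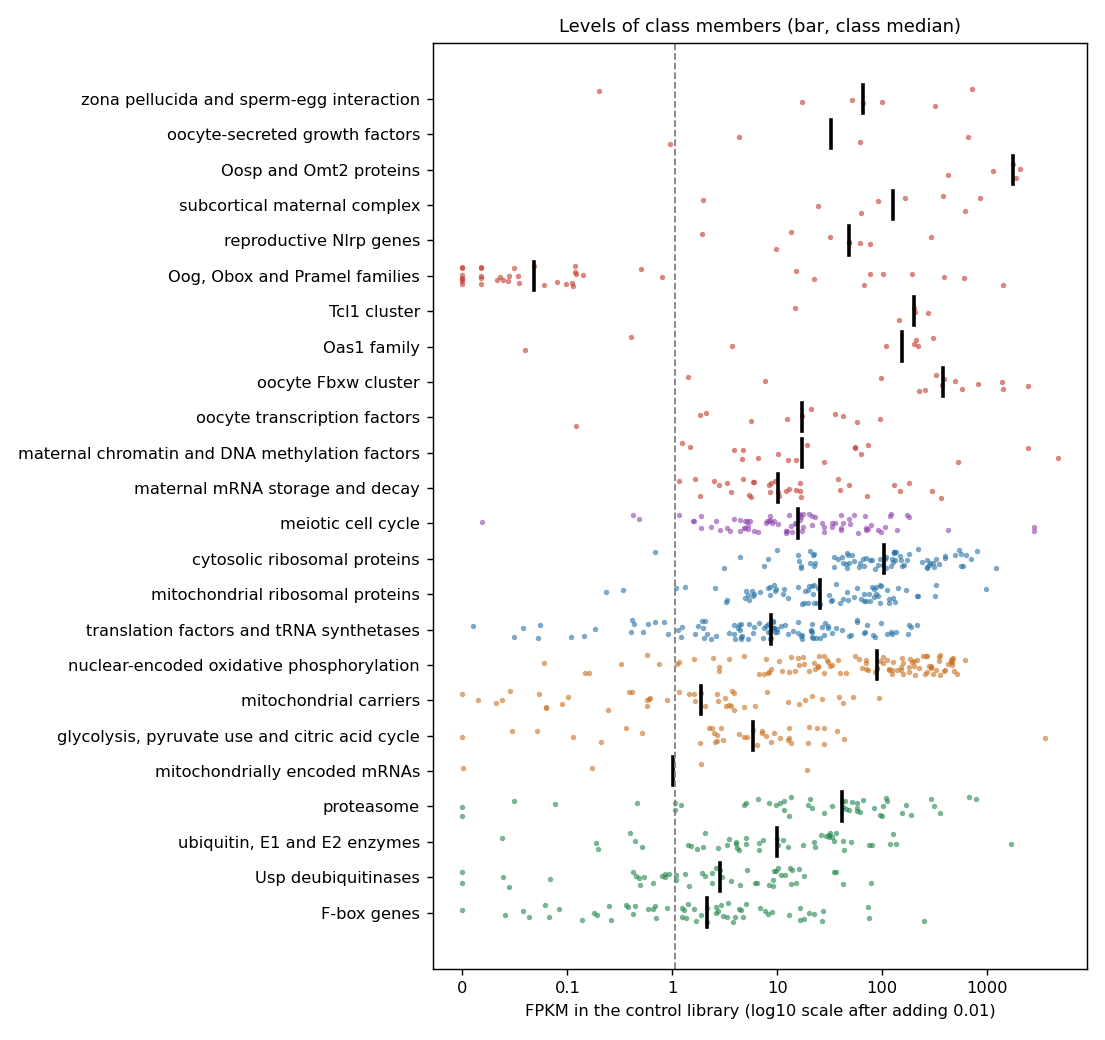
Control FPKM of the members of each class (log10 scale after adding 0.01), 1 point per gene name, with a black bar at the class median and a dashed line at 1.06 FPKM, the median of all names. Members of the Oosp and Omt2 class lie between 428 and 2076 FPKM. Those of the Oog, Obox and Pramel families run from 0 to 1413 FPKM, with a median of 0.038 FPKM over all 41 names. Of these, 16 are annotated as protein-coding.

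The Oosp and Omt2 genes code for small proteins made in oocytes, the Oosp proteins being secreted. All 5 were in the first 100 and together held 2.27% of FPKM. Omt2b was at 2076 FPKM, Omt2a at 1873 FPKM, Oosp1 at 1749 FPKM, Oosp2 at 1127 FPKM and Oosp3 at 428 FPKM. The most alike coding sequences of Omt2a and Omt2b were 66.1% identical, and those of Oosp1 were 50.5% identical to Oosp2 and 57.6% to Oosp3. Omt2a and Omt2b were at 1788 and 1754 FPKM in the low dose library and at 1981 and 1916 FPKM in the high dose library, so their order was not the same in every library.

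F-box proteins are substrate adaptors of SCF ligases. A list of 14 oocyte Fbxw genes, which is not the whole Fbxw family, held 2.77% of FPKM. All 14 were at 1 FPKM or more, 12 in the first 1000 and 6 in the first 100. Fbxw24 led with 2474 FPKM, followed by Fbxw15 with 1419, Fbxw22 with 1393, Fbxw18 with 821 and Fbxw16 with 580.3 FPKM. At the other end stood Fbxw14 with 7.56 FPKM and Fbxw17 with 1.41 FPKM, both named after their values were seen. Of the 14 genes 13 lie within chr9:109139447-109790670, and the exception, Fbxw17, lies on chromosome 13. The 6 members among the first 100 had coding sequences 82.1 to 86.6% identical over 15 pairs, so reads may be shared between them and single levels are uncertain. F-box genes outside the list had a median of 2.11 FPKM over 59 names, and the highest, Fbxl17, was at 248 FPKM. They include Fbxw23, a pseudogene within the same stretch of chromosome 9, with 73.8 FPKM.

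Obox and Oog genes belong to large families in the mouse genome, and few of their members carried the level. Of 41 names in the Oog, Obox and Pramel class 9 were at 1 FPKM or more and 7 were listed at 0. Only 16 of the 41 are annotated as protein-coding. Those 16 had a median of 11.5 FPKM, against 1.64 FPKM for all protein-coding names. Obox1, a homeobox gene, was at 1413 FPKM, Obox5 at 609, Oog3 at 386, Obox7 at 192 and Obox3 at 103 FPKM. Obox1 and Obox5 shared 91.0% of their most alike coding sequences, so their levels are uncertain. The Tcl1 genes, coactivators of the kinase AKT, had 4 of 5 names in the first 1000, led by Tcl1b1 with 271 FPKM. The Oas1 family of oligoadenylate synthetases had 5 of 8, led by Oas1e with 307 FPKM and Oas1d with 219 FPKM.

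The subcortical maternal complex, which lies beneath the egg membrane and is needed for cleavage of the mouse embryo, held 0.691% of FPKM, and its members differed widely. Ooep was at 858 FPKM, Zbed3, a zinc finger protein tied to the complex, at 619, Padi6, a peptidylarginine deiminase of egg lattices, at 383, Nlrp4f at 165 and Tle6 at 90.9 FPKM. The lowest of its 8 members was at 1.95 FPKM. Genes of the Nlrp4, Nlrp9 and Nlrp14 kind were all at 1 FPKM or more, 9 in number with a median of 47.8 FPKM, and Nlrp14 led with 290.5 FPKM.

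Egg coat and fertilisation genes held 0.397%. Zp3, a zona glycoprotein, led with 712 FPKM. Izumo1r, or Juno, the sperm receptor of the egg, was at 65.7 FPKM and Cd9, a tetraspanin needed for fusion with sperm, at 51.3 FPKM. Juno was at 32.6 and 33.4 FPKM in the exposed libraries, and Cd9 at 74.98 and 52.8 FPKM. Among ligands to the follicle cells, Gdf9 had 661 FPKM, Fgf8 61.4, Bmp15 4.27 and Bmp6 0.945 FPKM. Transcription factors of oocyte genes held 0.091% of FPKM over 11 names, with a median of 17.4 FPKM. Figla, which drives the zona genes, was at 95.8 FPKM, Nobox, a homeobox factor of oocytes, at 57.1, Sall4, a zinc finger factor, at 42.0, Foxo3, a forkhead factor that holds follicles dormant, at 35.4, and Lhx8, a LIM homeobox factor, at 20.9 FPKM.

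Chromatin and DNA methylation factors held 2.53%, of which Dppa3 and H1foo made up the greater part. Npm2, the histone chaperone nucleoplasmin, was at 523 FPKM, and Zfp57, which guards imprinted marks, at 72.9 FPKM. Genes of mRNA storage and decay, 33 names that were all at 1 FPKM or more, had a median of 10.2 FPKM. Btg4, which brings the deadenylase to maternal mRNA, led with 367 FPKM, followed by Pabpn1l, a poly(A)-binding protein of oocytes, with 296, Zar1l with 178, Zar1, an RNA-binding maternal-effect protein, with 149, and Slbp, the stem-loop binding protein of histone mRNA, with 131 FPKM.

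Of 82 names of the meiotic cell cycle 79 were at 1 FPKM or more and 17 in the first 1000, and the class held 2.64% of FPKM. Cks2 and Pttg1 made up most of this. The next members were Cks1b, a paralog of Cks2, with 425 FPKM, Ccnb1, cyclin B1 of maturation-promoting factor, with 182 FPKM, and Birc5, survivin of the chromosomal passenger complex, with 173 FPKM. The class median was 15.6 FPKM. The coding sequence of Cks1b was 73.4% identical to that of Cks2, with a level far below it.

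Nuclear genes of oxidative phosphorylation held 4.76% of FPKM, with 61 of 105 names in the first 1000 and a median of 89.1 FPKM. The highest were Ndufb11 of complex I with 610.4 FPKM, Uqcrq and Uqcr11 of complex III with 516 and 488 FPKM, Cox14, an assembly factor of complex IV, with 471 FPKM, and Ndufa2 of complex I with 468 FPKM. Cytosolic ribosomal proteins held 4.37%, with 50 of 78 names in the first 1000 and a median of 105 FPKM. Rpl35 had 1217 FPKM, Rpl37 705, Fau 629 and Rps14 593 FPKM. Mitochondrial ribosomal proteins held 1.58%, with 28 of 75 names in the first 1000 and a median of 25.4 FPKM, and Mrps33 with 983 FPKM was followed by Mrpl14 with 328 FPKM.

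Few mitochondrially encoded mRNAs had a named row, so their level is not known from these values. The control table listed 4 such names, of which mt-Co1 was the highest with 19.1 FPKM, mt-Cytb had 1.87 FPKM and mt-Nd4 0.162 FPKM, and together they held 0.0066% of FPKM. From the same genome mt-Rnr2, the large mitochondrial ribosomal RNA, was at 809 FPKM and at 1216 and 849 FPKM in the exposed libraries. Other mitochondrially encoded mRNAs, and reads of them in rows without a name, were not analysed here.

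The enzymes of glycolysis, pyruvate use and the citric acid cycle were dominated by Ldhb. The class held 1.23% of FPKM, yet Ldhb was its sole name in the first 1000. After Ldhb came Mdh1, the cytosolic malate dehydrogenase, with 43.4 FPKM, Mdh2, its mitochondrial counterpart, with 36.8, Mpc1, a subunit of the mitochondrial pyruvate carrier, with 28.1, and Pdhb, a subunit of pyruvate dehydrogenase, with 27.8 FPKM. Mitochondrial carriers of the Slc25 family had a median of 1.89 FPKM over 45 names, led by Slc25a13, an aspartate and glutamate carrier, with 93.8 FPKM.

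Most genes of protein turnover (156 of 203 names) and of the antioxidant and glutathione system (55 of 65) were at 1 FPKM or more. Of all names 50.9% were. Proteasome genes held 1.35%, with 43 of 48 names at 1 FPKM or more, 2 listed at 0 and 19 in the first 1000, and the core subunits Psmb1 and Psma2 led with 787 and 676 FPKM. Antioxidant genes held 1.37%, with 2 names listed at 0, and Sod1, the cytosolic superoxide dismutase, had 1231 FPKM, the peroxiredoxin Prdx1 598 FPKM and the glutaredoxin Glrx 521 FPKM. Deubiquitinases of the Usp kind had a median of 2.83 FPKM with 34 of 49 names at 1 FPKM or more, and Usp50 led with 77.6 FPKM. Cytoskeletal genes were lower except for Tmsb10, which binds actin monomers, with 1279 FPKM. The next actin gene, Pfn1, profilin, had 124 FPKM, and no tubulin or kinesin gene was in the first 1000.

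**Figure D3:**
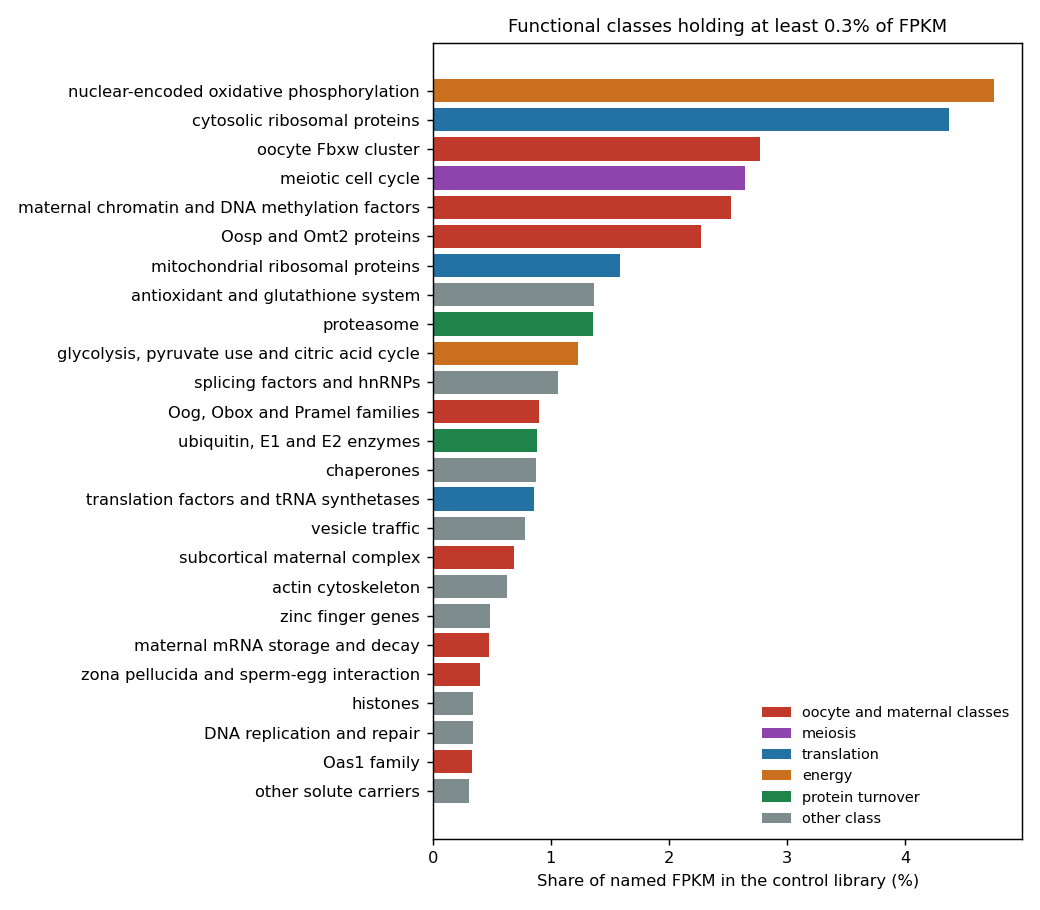
Share of the named control FPKM (percent, axis from 0) held by each functional class with at least 0.3%, 1 bar per class, coloured by group; provisional names and genes of no class are not drawn. Nuclear oxidative phosphorylation (4.76%) and cytosolic ribosomal proteins (4.37%) lead, followed by the Fbxw cluster (2.77%). This order holds for FPKM and changes when FPKM is weighted by transcript length.

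Some classes had medians below that of all names, 1.06 FPKM. Of all names 50.9% were at 1 FPKM or more. Olfactory, vomeronasal and taste receptors had a median of 0.037 FPKM over 248 names, of which 53 were listed at 0 and 40 were at 1 FPKM or more. The pseudogene Vmn2r-ps127 stood apart with 352 FPKM, and with 0.11% of FPKM it held most of the 0.172% of that class. Keratins and collagens had a median of 0.423 FPKM with 24 of 67 names at 1 FPKM or more, led by Krt12 with 100.8 FPKM. Zinc finger genes had a median of 0.833 FPKM with 202 of 425 names at 1 FPKM or more. That share, 47.5%, was near that of all names. The highest, Zfp706, was at 99.7 FPKM.

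The label of the library was set against markers. Of 17 oocyte markers 16 had a row, all at 1 FPKM or more, with a sum of 12272 FPKM and a median of 210 FPKM. Ddx4, the germ cell helicase Vasa, had no row under that name. Within the list Bmp15 (4.27 FPKM), Kit, the receptor of Kit ligand (4.07 FPKM), and Mos, the kinase of meiotic arrest (9.36 FPKM), were below 10 FPKM in control. In the exposed libraries Bmp15 was at 18.7 and 15.8 FPKM and Mos at 178 and 8.57 FPKM, so Bmp15 was above its control value in both and Mos in the low dose library. Dazl, a germ cell RNA-binding protein, was at 71.1 FPKM. In bulk RNA, fewer cells of a type and less RNA per cell cannot be told apart.

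Markers of the cells around the oocyte summed to low levels. The 9 of 11 cumulus and granulosa markers with a row summed to 25.2 FPKM, of which Nr5a2, a nuclear receptor, made up 16.98, Fshr, the receptor of follicle-stimulating hormone, 5.61, and Cyp19a1, aromatase, 1.42 FPKM. In the low and high dose libraries this sum was 28.1 and 24.6 FPKM. Amh and Foxl2 had no row, and Inha was at 0.378 FPKM. The summed level was 0.062 FPKM for expanded cumulus (1 of 4 with a row), 3.81 FPKM for theca and luteal cells (4 of 5), 0.208 FPKM for stroma (4 of 6), 3.83 FPKM for endothelium (3 of 5), 1.87 FPKM for leukocytes (2 of 6) and 2.21 FPKM for oviduct epithelium (4 of 5). The 1 erythrocyte marker with a row, Alas2, was listed at 0. Testis markers summed to 11.0 FPKM, nearly all from Prm2 with 10.2 FPKM. Of the markers of the 2-cell embryo, Tcstv1 was at 120.3 FPKM and Tcstv3 at 47.1 FPKM, whereas the 3 Zscan4 genes with a row lay between 0.055 and 0.373 FPKM. The part of other cells in the levels given here was not tested.

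Some abundant names were neighbours on a chromosome. Among the first 100 names 22 lay in 7 clusters of neighbours no more than 250 kb apart, a count for which no value over all names was computed. Some of these clusters, such as Zp3 with Polr2j, join genes with other names between them. At chr9:78311972-78378725, a stretch of 66.8 kb, Omt2a, Omt2b, Dppa5a and Ooep lay together and held 2.58% of all FPKM. Between them lies Gsta2, a glutathione transferase gene named after its values were seen, with 8.23 FPKM. Farther along the same chromosome, at chr9:109139447-109702700, 6 Fbxw genes held 2.25%. Chromosome 9 held 9.32% of FPKM with 5.30% of the names at 1 FPKM or more, and without the first 100 names its share was 5.19%. On chromosome 19, Oosp2, Oosp1 and Oosp3 lay at chr19:11647279-11711874 with 1.04%. Gdf9 and Uqcrq are neighbours at chr11:53427922-53437904, within 9.98 kb. No strand setting is given, so reads of overlapping neighbours could not be told apart.

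Abundant transcripts were short. The median length of the longest annotated protein-coding transcript was 1122 bases in the first 100 ranks, 1577 from there to rank 1000, 2848 from there to rank 5000 and 3316 bases in the remaining ranks at 1 FPKM or more. FPKM divides by length, so a short transcript reaches a high value with fewer reads. When FPKM was multiplied by that length, which approximates the share of sequenced fragments, 59 of the 100 first names stayed in the first 100 and the top 20 held 10.1% in place of 15.1%. Spin1 then came first with 0.774% of the total, followed by Pttg1 with 0.728% and Ldhb with 0.726%.

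Cytoplasmic polyadenylation elements were searched as TTTTAT or TTTTAAT in the last 100 bases of the longest protein-coding transcript in GENCODE release M21, on the sense strand only. A match was found in 24.2% of the protein-coding names in the first 100 ranks (22 of 91), against 18.02% of all 15554 protein-coding names. The share was 17.998% from there to rank 1000, 19.9% from there to rank 5000 and 16.1% below 1 FPKM, so it did not fall step by step with abundance. By class the match was present in 19 of 81 meiotic names, 6 of 18 chromatin factors and 3 of 5 Oosp and Omt2 names. It was rarer in some other oocyte classes, with 1 of 14 Fbxw names and 1 of 11 oocyte transcription factors. The zona and Oas1 classes had 0 of 7 each. The rest were not below the share of all protein-coding names, with 5 of 16 Oog, Obox and Pramel names. Both the subcortical complex and the Nlrp genes had 2 of 8. The growth factors had 2 of 4, the Tcl1 cluster 1 of 5 and mRNA storage and decay 6 of 31. Outside these it was in 8 of 78 ribosomal and 11 of 104 oxidative phosphorylation names. It was also in 19 of 72 histone-modifying and 23 of 93 DNA replication and repair names, so it did not set maternal classes apart. A match is a description of letters and the annotated end need not be the end used in oocytes. Windows of 30 bases around the match (capitals) are shown for 6 abundant maternal transcripts.
Cks2: tataaatgcctgTTTTATtttacctgtttt
H1foo: cgattctgaagcTTTTATtgtctaataagc
Omt2a: gggttttaacggTTTTATaataaataaaag
Bcl2l10: cccttaatacatTTTTAATaacttcaaatt
Spin1: tctgtaagtaatTTTTATaattatgatgta
Gdf9: agagtgctgtggTTTTATgtgacggaagaa
The capitals begin 51 bases before the annotated end in Cks2, 68 in H1foo, 30 in Omt2a, 42 in Bcl2l10, 62 in Spin1 and 39 in Gdf9.

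The same letters were counted over whole classes. The ratio of observed to expected CG pairs was taken over 300 bases, 250 before and 50 after the RefSeq start, and is given for classes in which at least 80% of protein-coding names had a promoter in the table. Its median was 0.165 for the Oosp and Omt2 genes, 0.219 for the subcortical maternal complex, 0.185 for the reproductive Nlrp genes, 0.087 for the Oog, Obox and Pramel families and 0.192 for the Tcl1 cluster. It was 0.769 over the protein-coding names at 1 FPKM or more with a promoter, 7230 of 9014. Oocyte transcription factors had a median of 0.411 and chromatin factors 0.682. Meiotic genes (0.873), oxidative phosphorylation (0.826), mitochondrial ribosomal proteins (0.818) and the proteasome (0.749) were nearer to the value for all. Of the other classes with enough promoters, splicing factors were at 0.928, antioxidant genes at 0.659 and zinc finger genes at 0.646. Other solute carriers were at 0.596 and keratins and collagens at 0.361.

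Counting members gave the same picture. A ratio below 0.4 was found for 4 of 4 matched Oosp and Omt2 genes, 5 of 8 of the subcortical complex, 6 of 7 Nlrp genes, 12 of 14 Oog, Obox and Pramel genes and 4 of 5 Tcl1 genes. It was found for 3 of 67 meiotic genes, 3 of 86 oxidative phosphorylation genes, 0 of 67 mitochondrial ribosomal genes and 4 of 40 proteasome genes. Among the protein-coding names at 1 FPKM or more with a promoter, 1212 of 7230 lay below 0.4. Among all 32851 promoters of the table, whatever their level or type and with several for some genes, 51.4% did. Olfactory, vomeronasal and taste receptors, with a median level near 0, had a median ratio of 0.129, so a low ratio was shared by abundant oocyte families and by genes barely detected. TATAA was present on the gene's own strand in the last 50 bases before the start in 8 of 14 Oog, Obox and Pramel promoters. It was in 0 of 67 meiotic promoters, in 215 of the 7230 and in 4.93% of the whole table. Other oocyte classes with low ratios had little of it, with 0 of 4 Oosp and Omt2, 0 of 7 Nlrp, 0 of 5 Tcl1 and 1 of 8 subcortical complex promoters. It was also in 20 of 52 histone and 17 of 54 keratin and collagen promoters. For the 100 most abundant names, the Fbxw cluster, ribosomal proteins and the zona class fewer than 80% had a promoter, so the check was void for them. Annotated starts need not be the starts used in oocytes.

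**Figure D4:**
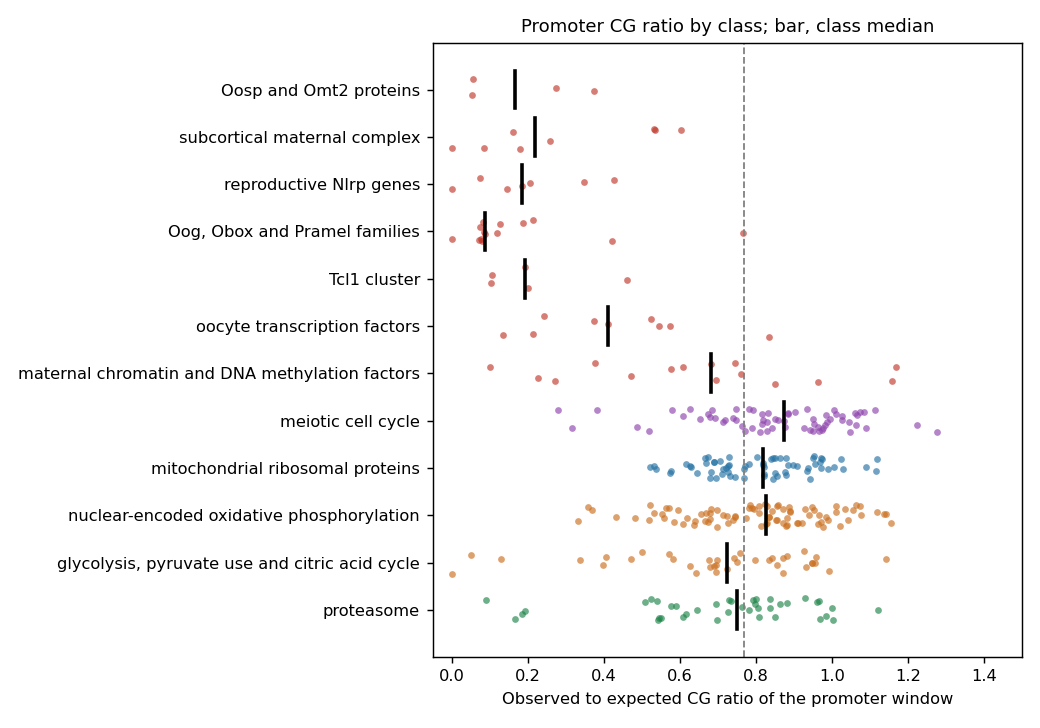
Ratio of observed to expected CG pairs in the promoter window of each gene, by class, 1 point per gene with a black bar at the class median, and a dashed line at 0.769, the median of protein-coding names at 1 FPKM or more. The Oosp and Omt2, subcortical complex, Nlrp, Oog and Tcl1 classes have medians from 0.087 to 0.219, and the meiotic, mitochondrial ribosomal, oxidative phosphorylation, glycolytic and proteasome genes have medians from 0.723 to 0.873.

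The exposed libraries were used to ask how far the order of the control library was kept. Of the 100 most abundant control names 82 were among the first 100 of the low dose library and 87 among those of the high dose library, and 97 were among the first 1000 of each. Over 11303 names Spearman's rank correlation with control was 0.84 for the low dose and 0.86 for the high dose, given as a description, since both share the control library and genes are not replicates. The control's first 100 held 25.8 and 28.5% of FPKM in the exposed libraries, against 32.2% in control, where they were chosen for being highest. The share of oocyte and maternal genes was 11.1% in control and 8.29 and 9.96% in the low and high dose libraries, and that of oxidative phosphorylation 4.76, 5.37 and 5.18%.

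Past a 2-fold difference on the log2(FPKM + 1) scale, a rule of size that understates the change of low genes, were 13 of the 100 names in the low dose library, 4 higher and 9 lower, where 18.2% of all names at 1 FPKM or more were past it (10.5% higher and 7.68% lower). In the high dose library 7 were past it, 2 higher and 5 lower, against 13.1% of all (6.36% higher and 6.78% lower). The most abundant names thus passed the rule at a share below that of all names, and their share of lower calls in the low dose library was near that of all. In either library 14 names were past it, and 6 in both.

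**Figure D5:**
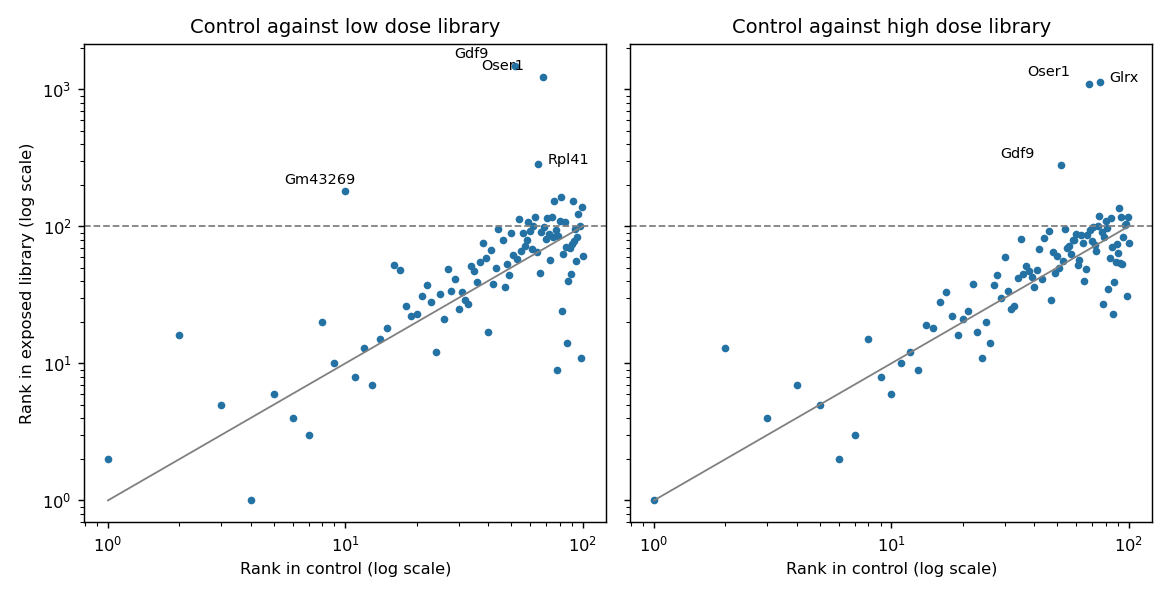
Rank in the low dose (left) and high dose (right) library against rank in the control library for 99 of the 100 most abundant control names, both axes on log scales, with a solid line of equal rank and a dashed line at rank 100. Gm2000, which had no row in the exposed tables, is not drawn. Farthest above the line of equal rank lie Gdf9, Oser1 and Gm43269 on the left, and Oser1 and Glrx on the right.

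The names that lost rank were few and of different kinds. Gdf9, at rank 52 in control with 661 FPKM, was at rank 1486 with 38.5 FPKM in the low dose library and at rank 279 with 193 FPKM in the high dose library. Oser1, a gene responsive to oxidative stress, went from rank 68 with 550.2 FPKM to 48.9 and 53.4 FPKM. Glrx was at 521, 318 and 51.5 FPKM and so dropped in the high dose library. Gm43269 was at 2167, 287 and 2284 FPKM and was low in the low dose library alone, as was Rpl41, a short ribosomal protein gene, with 566, 199 and 814 FPKM. Gm2000, at rank 45 with 753 FPKM, had no row in either exposed table, so its absence there was taken as 0 and no fold is given. The remaining names with the lowest ranks, Fbxw21, Syt1, Oosp3 and Pfdn4, stayed within the first 165 of both libraries. Whether tables without a row for a name assigned its reads elsewhere was not tested.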

How the data were processed

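Each library has 1 table of identifiers, gene names and FPKM, the unit in which the authors deposited it, per the file headers. HISAT2, StringTie and the build mm10 are named in the submitters' processing notes. Their versions, the annotation and the strand setting were not given in the sources used here. Total RNA was taken with Trizol, per the labels' protocols. Of 41258 control rows 37344 were loci numbered by the assembler, and 11963 rows without a name, with 15.4% of FPKM, were left out. Values were summed per name. A name absent from a table was taken as 0 in it. Depth was estimated from the most crowded narrow window of FPKM times length over 1406 rows of genes with 1 transcript, which held 133 rows and was taken as 1 read; this covers counting error only, and the assumption was not tested. Count models were not used on FPKM, and with 1 library per group there is no replicate to test on.

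The 41 classes were symbol lists, the first match taking a gene. Members and lists were chosen with earlier results of these data known. The names given are the 30 most abundant, up to 5 per class, the marker lists and the 10 that lost most rank; others are marked where they occur. Some of the names this rule gives are not reported here. Positions, types and transcript lengths came from GENCODE M21 on GRCm38, which matched 95.5% of names and 97.3% of named FPKM; 15554 of its 21992 protein-coding names had a row. Promoters came from RefSeq, matched by symbol or gene ID. Identity is the share of identical bases in a global alignment of the most alike annotated coding sequences, over the longer one. The tables disagreed on the name of 61 identifiers, with 0.098% of control FPKM and none in the first 100. Scripts ran in Python 3.11.15 with pandas 2.3.3, numpy 2.4.6, Biopython 1.88 and matplotlib 3.10.9 and were tested on simulated data. Alternatives covered how rows are joined, the level counted as expressed, the annotation type, transcript length, class overlap, pseudocount, scaling and fold.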

Additional observations from a re-analysis of the deposited data

Results flagged for a closer look

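Rows without a gene name, which the levels above leave out, held more FPKM in the exposed libraries than in control. Their share was 21.9% for the low dose and 19.3% for the high dose library, against 15.4% in the control library, with 1 library per group and no test. The rows themselves differed. Control had 41258 rows with 11963 unnamed, and each exposed library had 41310 with 12249 unnamed. A difference in how rows were assembled and named cannot be told apart from a difference in RNA.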

How the results depend on the processing

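No paired analysis was possible because each group has 1 library, and for the same reason no replicate could be left out. Of 65 alternatives of the main results 7 moved the value by over 1.5 times, and these follow. At 5 FPKM in place of 1 FPKM 5835 names counted as expressed. Weighting by transcript length brought the share of cytosolic ribosomal proteins to 1.89%, of oxidative phosphorylation to 2.16% and of the Oosp and Omt2 genes to 1.01%, which follows from their short transcripts. The Fbxw cluster (2.21%) and the meiotic class (2.20%), which moved less, then stood above these classes. Leaving out names of more than 1 class brought the Fbxw cluster to 0, because every member also matches the F-box pattern. At 1.5-fold the rule was passed by 29 of the 100 names (low dose) and by 19 (high dose). Of 216 alternatives over the other 36 classes 19 moved by over 1.5 times, 13 of them under length weighting. Of the 500 most abundant control names 379 and 414 were among the first 500 of the low and high dose libraries. With names kept only where the 3 tables hold the same rows, an alternative chosen after seeing the data, 81 and 86 of 100 kept their place in the first 100. Depth limits levels below 0.0865 FPKM for transcripts of 1 kb.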

Other observations

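Some of the 100 most abundant control names belong to no class above, and 4 of them were picked after their values were seen. Gnrh1, the precursor of gonadotropin-releasing hormone, was at 494 FPKM in control and at 403 and 387 FPKM in the low and high dose libraries. Uchl1, a deubiquitinase of neurons and germ cells, was at 861, 809 and 775 FPKM. Syt1, a calcium sensor of synaptic vesicles, was at 462, 318 and 329 FPKM, and Plac8 at 525, 381 and 409 FPKM. Each of these stood above 300 FPKM in all 3 libraries.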
